A study of Mus musculus with 6 samples.

Results

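Mitochondrial ribosomal proteins were examined in the expression arrays of microglia with and without PGC-1α overexpression. A gene was included when its symbol consisted of Mrpl or Mrps, a number and at most 1 further letter. Of the 23462 genes with a probe on the array, 78 met this rule, through 104 of 56605 probes. Each gene was represented by its brightest probe. Both groups consisted of mice labelled male, aged 10 weeks on a C57BL/6 background, and both carried PGC-1αf/f, a loxP-flanked PGC-1α allele with an enhanced GFP gene that acts only after Cre recombination. The mPGC-1α mice additionally carried a tamoxifen-inducible Cre in the Cx3cr1 locus, whereas the PGC-1αf/f controls were littermates. Tamoxifen was given on consecutive days, followed by an interval before the experiments. Cx3cr1 is also expressed by other macrophages and by monocytes, and the study set this interval to limit overexpression to microglia. Cells were isolated from brain with magnetic beads through the microglial surface receptor P2RY12, and each group had 3 arrays. The sources used here do not say whether an array held cells of 1 mouse or of a pool, so that p-values measure the spread between these samples.

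Mitochondria contain their own ribosome, which translates the few proteins that mitochondrial DNA encodes, all of them subunits of the respiratory chain and the ATP synthase. Its RNAs come from mitochondrial DNA, but all its proteins are encoded in the nucleus and imported. Part of them descend from bacterial ribosomal proteins, while others were added during mitochondrial evolution. The product of Ppargc1a, PGC-1α, binds no DNA itself but works as a coactivator with ERRα and with nuclear respiratory factors on promoters of nuclear genes for mitochondrial proteins. Whether this set of genes differed with PGC-1α overexpression is the comparison described here.

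Promoter sequences were inspected first. RefSeq windows of the build GRCm38.p6, which run from upstream of a gene's start to shortly after it, were matched by symbol to 69 of the 78 genes, with 75 windows in all. Exact matches to the letters of 5 motifs were sought on both strands, and none of these letter strings contains another. CCGGAAG, the core bound by GABPA (nuclear respiratory factor 2), was found in 26 of 75 windows (34.7%) and in 8.86% of all 32851 windows. GCGCANGCG, a motif of NRF1, was found in 16 windows (21.3%) and in 6.25% of all windows. AAGATGGC, a motif of YY1, was found in 12 windows (16%) and in 2.75% of all windows. AAGGTCA, the site of ERRα and related receptors, was found in 4 windows (5.33%), those of Mrpl12, Mrpl36, Mrps15 and Mrps21, and in 4.72% of all windows. The E-box CACGTG was found in 9.33% of the windows of these genes and in 7.15% of all windows. The median GC content was 58.7%, against 52.7% over all windows. All windows belonged to 27025 genes, of which 17492 were protein-coding. The shares of all windows therefore include other gene types and are not a matched background. A match is a description of the letters and not of binding.

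Windows are shown for 4 genes on which the account turns, read 5′ to 3′ on the strand of the gene, with matches to the motifs in capitals. Mrps11 had the highest difference between the groups, and its window (chr7:78782881-78783180, plus strand) held a YY1 match on the reverse strand. Mrps12 (chr7:28741772-28742071, minus strand) held a YY1 match on the reverse strand and a GABPA match. Mrpl12 (chr11:120484387-120484686, plus strand) held an NRF1 and an ERR match, both on the reverse strand. Mrps30 (chr13:118387203-118387502, minus strand) had the lowest difference and held none of the 5 motifs.
Mrps11: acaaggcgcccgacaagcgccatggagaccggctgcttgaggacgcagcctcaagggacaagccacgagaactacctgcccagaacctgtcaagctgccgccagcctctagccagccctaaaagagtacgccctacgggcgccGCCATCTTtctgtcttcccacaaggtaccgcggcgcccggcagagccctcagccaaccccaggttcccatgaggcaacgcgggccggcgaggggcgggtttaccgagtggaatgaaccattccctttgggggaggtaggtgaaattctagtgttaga
Mrps12: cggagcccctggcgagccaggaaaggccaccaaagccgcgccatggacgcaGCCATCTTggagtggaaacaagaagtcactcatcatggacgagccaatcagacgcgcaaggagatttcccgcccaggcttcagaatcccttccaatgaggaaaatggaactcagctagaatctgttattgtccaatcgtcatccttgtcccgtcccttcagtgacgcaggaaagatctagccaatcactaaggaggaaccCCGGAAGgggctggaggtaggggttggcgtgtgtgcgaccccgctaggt
Mrpl12: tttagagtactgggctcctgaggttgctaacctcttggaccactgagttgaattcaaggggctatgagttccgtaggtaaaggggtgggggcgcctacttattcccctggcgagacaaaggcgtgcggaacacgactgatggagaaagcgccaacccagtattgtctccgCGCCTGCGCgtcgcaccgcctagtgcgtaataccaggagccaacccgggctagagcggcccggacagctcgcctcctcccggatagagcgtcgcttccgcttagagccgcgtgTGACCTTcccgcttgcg
Mrps30: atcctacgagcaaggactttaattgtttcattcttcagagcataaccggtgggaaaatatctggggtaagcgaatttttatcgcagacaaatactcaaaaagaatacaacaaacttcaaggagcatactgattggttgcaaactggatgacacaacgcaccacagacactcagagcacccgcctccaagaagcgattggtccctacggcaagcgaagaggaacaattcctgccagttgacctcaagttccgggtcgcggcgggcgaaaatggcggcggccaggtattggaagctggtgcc

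Many of these genes start back to back with another gene. Of the 69 genes with a window, 24 (34.8%) had a protein-coding gene starting on the opposite strand within 1000 bases upstream, compared with 8.48% of 17492 protein-coding genes. The starts of Mrps11 and Mrpl46 lay 42 bases apart, so both members of this pair are ribosomal protein genes. Mrps12 lay 147 bases from Sars2, the mitochondrial seryl-tRNA synthetase, and Mrpl43 lay 116 bases from Twnk, the mitochondrial DNA helicase. Mrpl47 lay 308 bases from Ndufb5, a complex I subunit.

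Array-wide facts that bear on these genes were as follows. All 6 arrays lay on 1 slide, PGC-1αf/f in row 1 and mPGC-1α in row 2, so row and group cannot be told apart. Of 59305 spots, 27025 to 30272 were well above background per array, and 0 were saturated. PGC-1αf/f replicate 3 stood apart, since over 22997 probes its correlations with the rest averaged 0.928, against 0.962 to 0.972 for each other array. On the array labelled mPGC-1α replicate 3, the Y-linked genes Ddx3y, Eif2s3y, Kdm5d and Uty were not well above background, which goes against the label male, whereas all 4 were above background on the other arrays. Xist, an RNA of the inactive X chromosome, was above background on that array and on replicate 2 of each group. The main count and median are therefore also given without PGC-1αf/f replicate 3 and without mPGC-1α replicate 3. Values are log2 signal minus the 75th percentile of the array, and differences are mPGC-1α minus PGC-1αf/f. Each probe was tested with limma, with Benjamini-Hochberg adjustment over all probes. Levels of different genes were not compared in amount, since probes differ in brightness.

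The transgene's gene, Ppargc1a, was examined to check the labels. Its brighter probe gave 0.19, -0.44 and -1.21 in PGC-1αf/f and 0.57, 0.28 and 0.08 in mPGC-1α microglia, so the groups overlapped. The difference was 0.80 (SE 0.35, limma adjusted p = 0.306), and it was 0.44 without PGC-1αf/f replicate 3. The dimmer probe differed by 0.59 (SE 0.38, limma adjusted p = 0.445), and its groups overlapped as well.

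The mitoribosomal genes were well measured. All arrays were well above background for 77 of 78 genes, and 74 had a value on every array after outlier spots were left out. The exception was Mrpl35, a protein of the large subunit with a bacterial homologue, which exceeded background on 0 of 6 arrays and was not tested. When the 11853 tested genes with 6 values were put into 10 equal classes by mean signal, 63 of the 74 genes fell in classes 7 to 10, the brightest. The median SE of a difference was 0.14, and the median half-width of its 95% interval was 0.34.

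No mitoribosomal gene passed an adjusted p of 0.05, and the smallest value was 0.161, for Mrps11 (limma). Over all tested probes, 20 of 25257 passed (0.0792%). At an unadjusted p under 0.05, 9 of 77 genes were higher (11.7%, against 7.83% of all tested genes) and 0 were lower (against 5.74%). The 9 became 3 (3.9%, against 6.08%) without PGC-1αf/f replicate 3, 3 (3.9%, against 8.25%) without PGC-1αf/f replicate 2, 3 (3.95%, against 4.90%) without mPGC-1α replicate 1, and 0 when arrays were aligned on their median (against 5.21%). Without PGC-1αf/f replicate 1 the count was 14 (18.2%, against 12.4%). It was 5 (6.49%, against 4.60%) without mPGC-1α replicate 2 and 4 (5.19%, against 4.91%) without mPGC-1α replicate 3. The differences nevertheless lay mostly on 1 side. The mean of mPGC-1α microglia exceeded that of PGC-1αf/f microglia for 67 genes and fell short of it for 10, so 87.0% were higher in mean, against 52.9% of all tested genes. The median difference was 0.21, a 1.16-fold value, beside a median of 0.02 over all tested genes. The 3 mPGC-1α arrays all exceeded the 3 PGC-1αf/f arrays for 28 of 74 genes (37.8%, against 12.4% of all tested genes), and all lay below them for 2 genes, Mrps30 and Mrpl24 (2.70%, against 10.7%). When arrays were aligned on their median in place of the 75th percentile, the median over all tested genes moved to -0.13. That of the mitoribosomal genes moved to 0.06, with 44 higher and 33 lower, against 4295 of 13085 tested genes higher. The gap between these medians was 0.19 under either alignment.

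**Figure D1:**
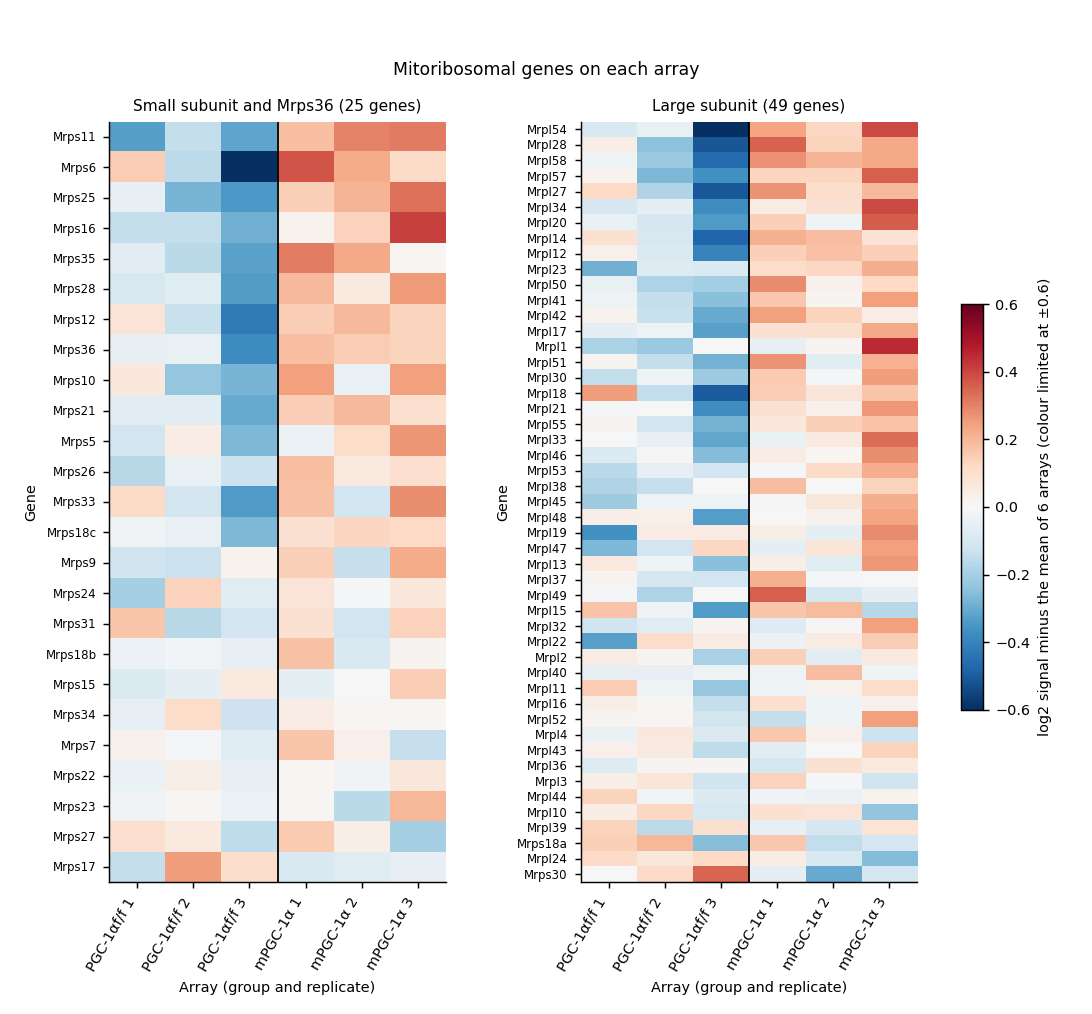
Heat map of the 74 mitoribosomal genes with a value on every array, the small subunit with Mrps36 on the left and the large subunit on the right. Colour gives the log2 signal minus the gene's mean over 6 arrays (red higher, blue lower), columns are arrays, a black line parts PGC-1αf/f from mPGC-1α, and genes are ordered by the difference between the groups. PGC-1αf/f replicate 3 was the lowest of the arrays for 45 genes, and mPGC-1α replicate 3 was the highest for 34.

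The difference was not spread evenly over the arrays. After each gene was centred on its own mean, the median over the 74 genes was -0.02, -0.05 and -0.21 in controls and 0.12, 0.03 and 0.14 with overexpression. The groups did not overlap in this median, and PGC-1αf/f replicate 3 lay farthest from the rest. Without that array, the median difference was 0.15, with 63 of 77 genes higher in mean, and all mPGC-1α arrays exceeded both remaining controls for 33 of 74 genes (44.6%, against 15.7% of all genes tested that way). Without mPGC-1α replicate 3, the median was 0.14, with 66 genes higher in mean, and both remaining mPGC-1α arrays exceeded all controls for 31 genes (41.9%, against 17.4%). Within slide column 1, which held replicate 1 of each group, the median difference was 0.13, and within column 2 it was 0.08. Of the 74 genes with values in both columns, 43 were higher in both and 7 were lower in both.

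Transcripts of several other cell types also set PGC-1αf/f replicate 3 apart, while the order of the remaining arrays varied between marker lists. Of 17 tested markers of blood leukocytes, 17 were higher in mean in mPGC-1α samples, with a median difference of 1.11. Their summed log2 signal was 6.78, 7.04 and 4.24 in controls and 7.02, 7.13 and 7.31 in mPGC-1α samples, so the lowest value again belonged to PGC-1αf/f replicate 3. Without that array the median difference was 0.34 over the 16 leukocyte markers that still had values. Among the untested markers, Cd79a and Ms4a1 of B cells and Klrb1c of natural killer cells did not reach background on every array of a group. Of 11 tested oligodendrocyte markers, 10 were lower in mean, and their summed log2 signal was 4.25 to 4.62 in PGC-1αf/f and 3.74 to 3.98 in mPGC-1α samples. Of 6 tested markers of endothelial and mural cells 6 were higher in mean (median 0.51), of 7 markers of border macrophages 7 (median 0.31) and of 4 erythroid markers 4 (median 0.20). With arrays aligned on the median, these counts were 5, 6 and 2. Centred on each gene's mean, the median in PGC-1αf/f replicate 3 was -1.12 for endothelial and -2.45 for erythroid markers, the lowest of the arrays for both. Without that array, the median differences of these 3 lists were 0.06, 0.32 and -0.42, and without mPGC-1α replicate 3 they were 0.36, 0.09 and -0.14. Of 7 tested neuronal markers 6 were higher in mean, with a median of 0.14, and PGC-1αf/f replicate 3 was again the lowest, with a centred median of -0.68. Without it, 2 of 7 were higher and the median was -0.08. Of 8 astrocyte markers 4 were higher, with a median of 0.03 that was -0.09 without PGC-1αf/f replicate 3 and 0.14 without mPGC-1α replicate 3. With arrays aligned on the median, 3 of the neuronal and 1 of the astrocyte markers were higher. Markers of microglia were all well above background, with a summed log2 signal of 7.10 to 7.39 and 7.01 to 7.20. They lay on the other side from the mitoribosomal genes, since 12 of 14 were lower in mean with a median of -0.18. With arrays aligned on the median, 14 of 14 were lower, with a median of -0.32. Under that alignment only 4295 of 13085 tested genes were higher, with a median of -0.13, which bears on all marker counts given for it. Cx3cr1, the gene whose locus carries the Cre, had the lowest difference at -0.51 (limma adjusted p = 0.194), with all mPGC-1α arrays below the controls. The part of these marker lists in the difference of mitoribosomal genes was not tested. In bulk samples, fewer cells of a type and less RNA per cell cannot be told apart.

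Among single genes, Mrps11, a small subunit protein with a bacterial homologue, had the highest difference and the smallest p. Its log2 signal was 1.37, 1.55 and 1.38 in PGC-1αf/f and 1.88, 2.00 and 2.01 in mPGC-1α microglia. The means were 1.44 ± 0.10 and 1.96 ± 0.07 (SD, n = 3 each), a difference of 0.53 (SE 0.13) or 1.44-fold, with a gap between the groups on every array. It remained 0.50 without PGC-1αf/f replicate 3, and was 0.51 and 0.44 within slide columns 1 and 2. Its back-to-back neighbour Mrpl46 also had all mPGC-1α arrays above the controls, with a smaller difference of 0.22 that was 0.15 without PGC-1αf/f replicate 3.

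Mrps25, a small subunit protein specific to mitochondria, gave 1.94, 1.71 and 1.65 in controls and 2.13, 2.19 and 2.32 in mPGC-1α microglia. The groups did not overlap, and the difference was 0.45 (SE 0.14, limma adjusted p = 0.221). For Mrps16, whose homologue is a bacterial small subunit protein, the values were 2.21, 2.22 and 2.07 against 2.38, 2.50 and 2.77. Every mPGC-1α array was higher, by 0.38 on average. Mrps6 gave 2.86, 2.55 and 1.99 against 3.08, 2.93 and 2.82. Here PGC-1αf/f replicate 1 lay above mPGC-1α replicate 3, and the difference of 0.48 came down to 0.24 without PGC-1αf/f replicate 3.

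In the large subunit, Mrpl58 (also called ICT1) stands out by its role, since it is a peptidyl-tRNA hydrolase that releases stalled ribosomes besides being built into the ribosome. Its signal was 2.85, 2.65 and 2.41 in PGC-1αf/f and 3.15, 3.07 and 3.10 in mPGC-1α microglia. The groups were apart for this probe, with a difference of 0.47 (SE 0.15, limma adjusted p = 0.227), and a second probe gave 0.44 with a slight overlap. Mrpl54, specific to mitochondria, gave 1.94, 1.98 and 1.40 against 2.27, 2.15 and 2.43, a difference of 0.51 that was 0.32 without the low control, replicate 3. Mrpl28 gave -0.07, -0.36 and -0.62 against 0.24, 0.02 and 0.11, with no overlap and a difference of 0.48 (limma adjusted p = 0.260). Mrpl57 gave 2.44, 2.15 and 2.05 against 2.55, 2.55 and 2.78. Its groups were apart as well, by 0.41 in mean.

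**Figure D2:**
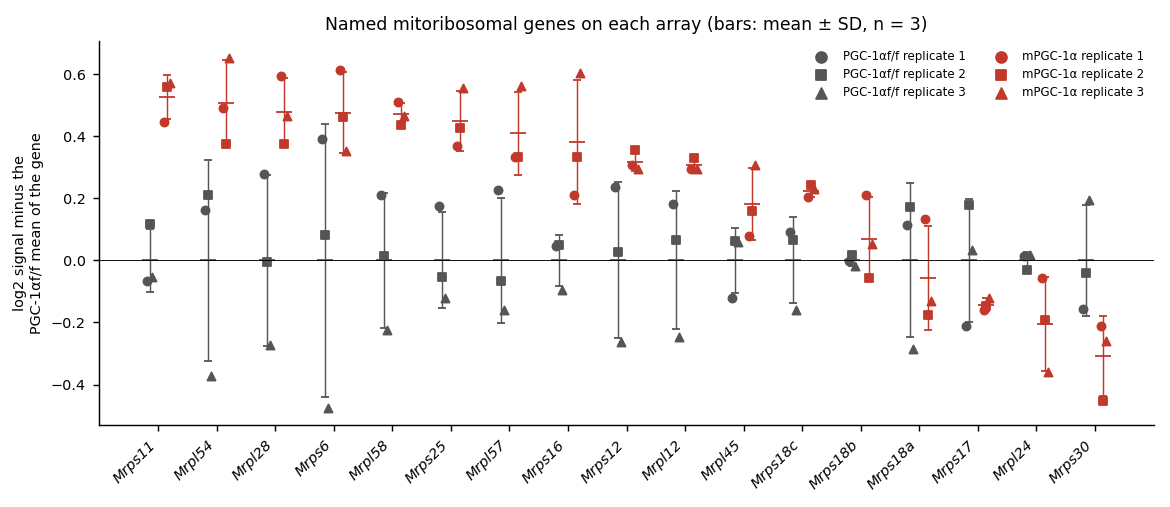
Values of 17 named genes on each array, as log2 signal minus the gene's PGC-1αf/f mean, with grey for PGC-1αf/f, red for mPGC-1α, a marker shape per replicate and bars for the mean ± SD (n = 3). The 8 genes on the left have differences of 0.38 to 0.53, and in 7 of them PGC-1αf/f replicate 3 (grey triangle) is the lowest point, while Mrps30 and Mrpl24 on the right have all red points below the grey.

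Both genes with all mPGC-1α arrays below the controls belong to the large subunit. Mrps30, which in spite of its symbol sits in the large subunit, gave 1.60, 1.71 and 1.95 in PGC-1αf/f and 1.54, 1.30 and 1.49 in mPGC-1α microglia. The difference was -0.31 (SE 0.15, limma adjusted p = 0.346). Mrpl24, a large subunit protein with a bacterial homologue, gave 3.00, 2.95 and 3.00 against 2.92, 2.79 and 2.62. Its controls were close together, and the difference was -0.20, or -0.13 without mPGC-1α replicate 3. The gaps between the groups were narrow, the first mPGC-1α array lying only slightly below the lowest control for both genes.

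Among genes with a value on every array, the next in this order overlapped between groups. Mrps17 gave 1.90, 2.29 and 2.14 against 1.95, 1.96 and 1.99, a difference of -0.14. Its second, dimmer probe differed by 0.35 in the other direction, so that no direction can be given for this gene. Mrpl39, a protein related to threonyl-tRNA synthetase, gave 1.54, 1.25 and 1.50 against 1.35, 1.30 and 1.49. Its difference of -0.05 was well within its SE of 0.14. Mrpl10, at the base of the stalk that recruits translation factors, gave 0.20, 0.28 and 0.06 against 0.25, 0.24 and -0.08, with a difference of -0.04. Genes with missing values stood outside this ranking and are added after their values were seen. Mrps14 differed by 0.50, from 3 controls and 1 mPGC-1α array, and Mrps2 by -0.07, from 5 arrays.

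Mrpl12 forms the stalk itself and is also known to bind the mitochondrial RNA polymerase. Its signal was 2.67, 2.55 and 2.24 in PGC-1αf/f and 2.78, 2.82 and 2.78 in mPGC-1α microglia, with a difference of 0.31 that was 0.18 without PGC-1αf/f replicate 3. All mPGC-1α arrays lay above the controls for this gene, whose promoter window holds both an ERR and an NRF1 match. Mrps12, a protein of the decoding centre, gave 2.27, 2.06 and 1.77 against 2.34, 2.39 and 2.33. It showed the same order with a difference of 0.32, or 0.19 without PGC-1αf/f replicate 3, and its neighbour Sars2 differed by 0.06, a value that was -0.02 without PGC-1αf/f replicate 3 and 0.23 without mPGC-1α replicate 3. Mrpl45, which ties the ribosome to the inner membrane, gave 0.97, 1.15 and 1.15 against 1.17, 1.25 and 1.40. The lowest mPGC-1α array lay just above the highest control, and the difference was 0.18, or 0.12 without mPGC-1α replicate 3.

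The 3 proteins encoded by Mrps18a, Mrps18b and Mrps18c descend from 1 bacterial protein, S18, and occupy different places in the ribosome. Mrps18c, in the place of the bacterial protein, gave 2.18, 2.16 and 1.93 in PGC-1αf/f and 2.30, 2.33 and 2.32 in mPGC-1α microglia, with no overlap and a difference of 0.22, or 0.15 without PGC-1αf/f replicate 3. Mrps18b, elsewhere in the small subunit, gave 1.53, 1.55 and 1.52 against 1.74, 1.48 and 1.59, so the difference of 0.07 rested on the first mPGC-1α array, and it turned to -0.08 when arrays were aligned on the median. Mrps18a, which sits in the large subunit, gave 2.44, 2.49 and 2.04 against 2.46, 2.15 and 2.19, a difference of -0.06 that was -0.20 without the low control. The differences between these paralogues were not tested.

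Where a gene had several probes, they did not always agree. Of 22 genes with more than 1 tested probe, 5 had probes of opposite sign, namely Mrps17, Mrpl1, Mrpl44, Mrpl9 and Mrps33. The brighter Mrpl1 probe differed by 0.28, or 0.12 without mPGC-1α replicate 3, and the dimmer by -0.05. For Mrps33 the brightest probe gave 0.22 and the dimmest -0.34, the former being 0.11 without PGC-1αf/f replicate 3 and 0.14 without mPGC-1α replicate 3. Mrpl44, a protein related to ribonuclease III, had differences of -0.02 and 0.01, both far within the error, and Mrpl9 had differences of -0.04, from 5 arrays, and 0.14. The 3 probes of Mrpl27, in contrast, gave 0.38, 0.40 and 0.25, the first of which was 0.22 without PGC-1αf/f replicate 3.

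**Figure D3:**
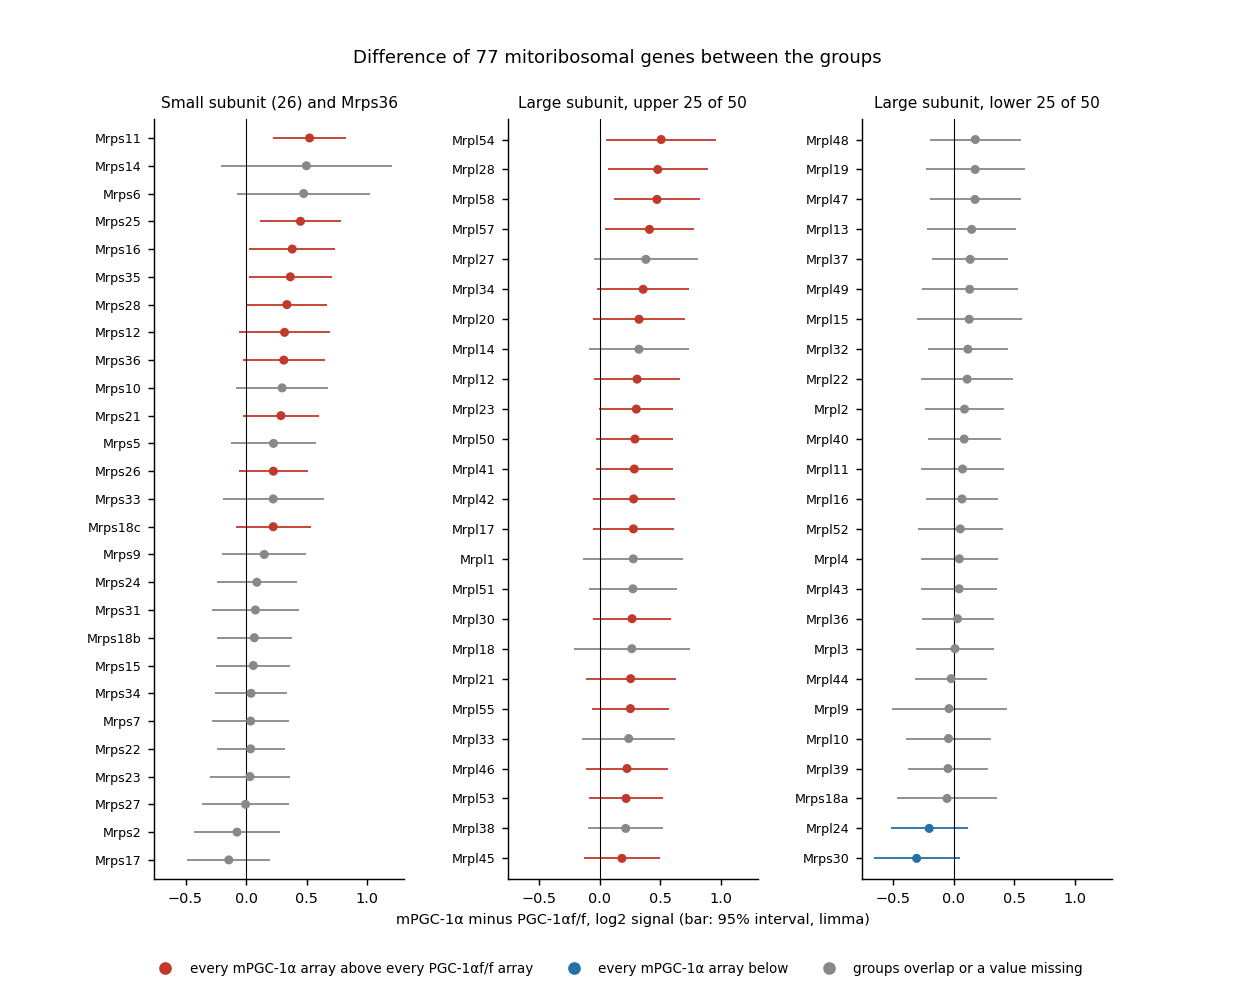
Difference in log2 signal between mPGC-1α and PGC-1αf/f microglia for the 77 tested mitoribosomal genes, with the 95% interval from limma, in 1 panel for the small subunit with Mrps36 and 2 for the large subunit. Red marks the 28 genes with every mPGC-1α array above every control (37.8% of 74, against 12.4% of all tested genes). Blue marks the 2 genes with every mPGC-1α array below (2.70%, against 10.7%). No gene passed an adjusted p of 0.05, and aligning arrays on the median moves the points to the left.

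The medians of both subunits lay close together. In the small subunit, 23 of 26 genes were higher in mean with a median of 0.22, and in the large subunit 43 of 50 with a median of 0.18. Without PGC-1αf/f replicate 3 these medians were 0.15 and 0.16, and without mPGC-1α replicate 3 they were 0.15 and 0.13, so the order of the subunits was not stable. Aligned on the median of each array, 15 of 26 and 28 of 50 were higher, against 4295 of 13085 tested genes. All mPGC-1α arrays exceeded the controls for 9 of 24 small subunit genes and 18 of 49 large subunit genes with a value on every array, beside 12.4% of all tested genes. By origin, genes with a bacterial homologue had a median of 0.22 (38 of 43 higher) and mitochondria-specific genes one of 0.18 (25 of 29 higher). Mrps36, now known mainly as a subunit of the 2-oxoglutarate dehydrogenase complex, was left out of both subunits and differed by 0.31, or 0.20 without PGC-1αf/f replicate 3.

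Proteins of the mitoribosome with other symbols lay mostly on the same side. Dap3, a GTP-binding protein of the small subunit, gave 1.68, 1.61 and 1.64 in PGC-1αf/f and 1.82, 1.83 and 1.79 in mPGC-1α microglia. The groups did not overlap, though the difference was only 0.17 (SE 0.12). Gadd45gip1 (CRIF1), at the polypeptide exit of the large subunit, gave 1.47, 1.81 and 0.75 against 2.18, 1.86 and 2.29, a difference of 0.77 (SE 0.28, limma adjusted p = 0.262) that was 0.47 without PGC-1αf/f replicate 3. Ptcd3 had the lowest difference of these 5 genes, -0.04, or -0.16 without mPGC-1α replicate 3. Their median was 0.17, with 4 of 5 higher in mean, and 0.02 when arrays were aligned on the median.

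The genes that serve the mitoribosome had lower medians than its proteins. Of 15 tested mitochondrial translation factors, 5 were higher in mean, with a median of -0.06 and 0 past the adjusted threshold. Without PGC-1αf/f replicate 3, 8 of the 13 that still had values were higher and the median was 0.006, the genes lost being Gfm2 and Mtrf1l, both lower in mean. Slirp, an RNA-binding protein that stabilises mitochondrial mRNAs, was highest at 0.24, with all mPGC-1α arrays above the controls. Gfm2, the elongation factor that recycles ribosomes, was lowest at -0.58, from 1 control and 2 mPGC-1α arrays only. Of 26 genes for assembly of the ribosome or modification of its RNA, 9 were higher in mean, with a median of -0.05 that was 0.002 after normexp correction, and 15 were higher, with a median of 0.03, without PGC-1αf/f replicate 3. The assembly genes ranged from -0.42 for Mterf3, a value that was -0.09 without PGC-1αf/f replicate 3, to 0.28 for Mrm3, the latter a methyltransferase of the large ribosomal RNA. Aligned on the median of each array, 3 of the 15 translation factors and 2 of the 26 assembly genes were higher in mean. Their medians were -0.21 and -0.20, beside -0.13 over all tested genes, of which 4295 of 13085 were higher. No test compared these lists with the ribosomal proteins.

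Mitochondrial aminoacyl-tRNA synthetases, which charge the tRNAs that the ribosome reads, had a median of 0.03 (11 of 21 higher in mean), which was -0.12 with arrays aligned on the median and -0.04 after normexp correction. Lars2, the leucyl-tRNA synthetase, gave -0.18, 0.03 and 0.12 in PGC-1αf/f and -0.93, -0.77 and -0.86 in mPGC-1α microglia. All mPGC-1α arrays were lower by a wide gap, and the difference was -0.84 (SE 0.14, limma adjusted p = 0.0957). At the other end, Fars2, the phenylalanyl-tRNA synthetase, gave 1.14, 1.26 and 0.97 against 1.63, 1.56 and 1.46, a difference of 0.42 (limma adjusted p = 0.229).

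**Figure D4:**
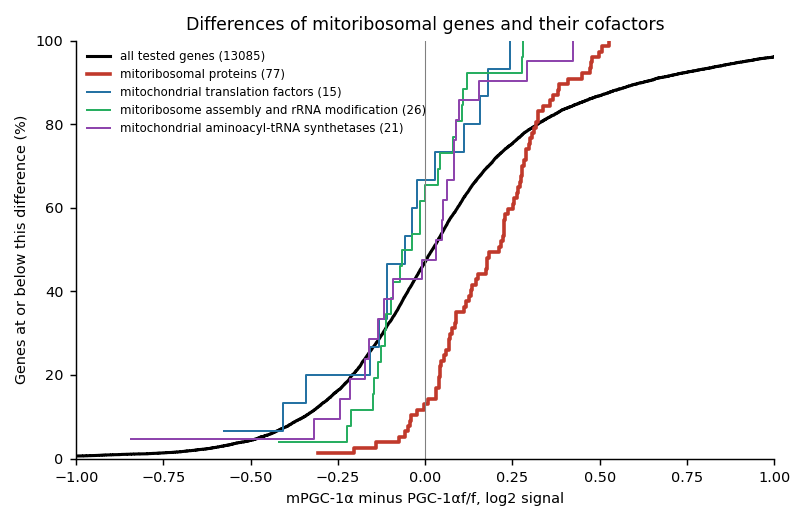
Cumulative share of genes (percent, vertical axis) at or below a difference in log2 signal between mPGC-1α and PGC-1αf/f microglia (horizontal axis, shown from -1 to 1), for 77 mitoribosomal genes in red, 13085 tested genes in black and 3 lists of genes serving mitochondrial translation. The red curve has the highest median, 0.21, and runs from -0.31 to 0.53. The black curve has longer tails, but it holds far more genes, dim ones included, so the widths cannot be compared.

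Other large sets of housekeeping genes were set beside the mitoribosome. Of 36 tested nuclear genes for complex I subunits, 35 were higher in mean, with a median of 0.23, and of 82 cytosolic ribosomal protein genes 78 were higher, with a median of 0.13. None of either set passed an adjusted p of 0.05. Among genes with a value on every array, all mPGC-1α arrays exceeded the controls for 9 of 28 complex I genes. The same held for 7 of 72 cytosolic ribosomal genes and 28 of 74 mitoribosomal genes. All mPGC-1α arrays lay below the controls for 0, 1 and 2 genes of these sets. The values of both sets depended on the scaling. For cytosolic ribosomal proteins the median was 0.02 after quantile normalization and -0.02 when arrays were aligned on the median (27 of 82 higher). For complex I it was 0.19 and 0.08 (28 of 36 higher). With arrays aligned on the median, the median over all tested genes was -0.13, with 4295 of 13085 higher. Array by array, the centred median of complex I was 0.07, -0.11 and -0.30 in controls and 0.14, 0.06 and 0.16 in mPGC-1α samples, so that the first control lay above the second mPGC-1α array. For cytosolic ribosomal proteins it was 0.11, -0.07 and -0.23 against 0.04, -0.05 and 0.20, with more overlap. PGC-1αf/f replicate 3 was the lowest array in all 3 sets, and without it the median difference was 0.15 for complex I and 0.05 for cytosolic ribosomal proteins.

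**Figure D5:**
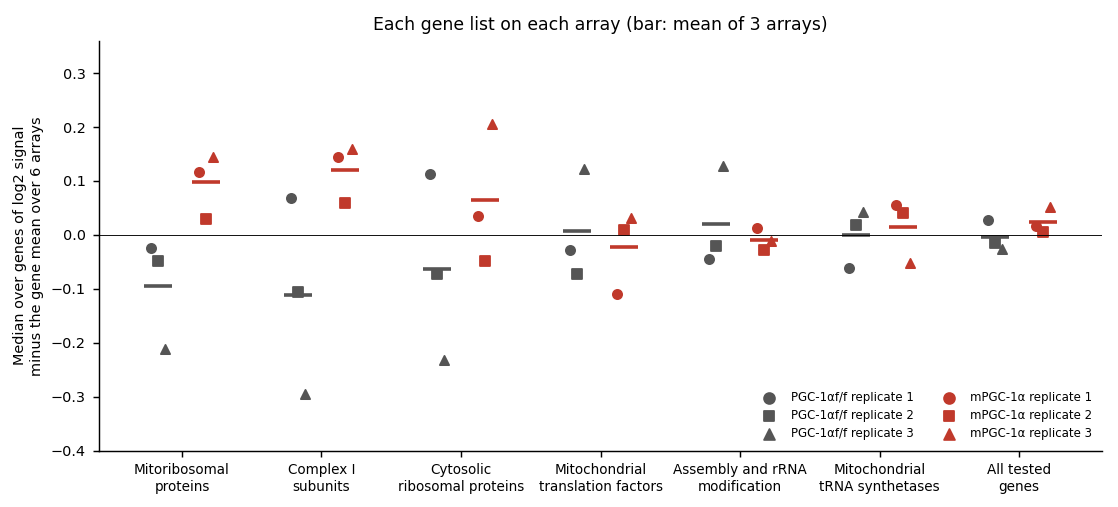
Median over the genes of each list of the log2 signal minus the gene's mean over 6 arrays, with 1 point per array, grey for PGC-1αf/f, red for mPGC-1α, a marker shape per replicate and a bar for the mean of the 3 arrays. For mitoribosomal proteins the red points (0.03 to 0.14) lie above the grey ones (-0.21 to -0.02). For complex I they overlap narrowly, with PGC-1αf/f replicate 1 at 0.07 and mPGC-1α replicate 2 at 0.06. They also overlap for the cytosolic ribosome, translation factors, assembly genes, tRNA synthetases and all tested genes.

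Differences in the mRNA of PGC-1α, its relatives and factors whose motifs were sought were estimated with unequal precision. Esrra, which encodes ERRα, differed by 0.11 (SE 0.13) and Nrf1 by 0.04 (SE 0.13). Without mPGC-1α replicate 3 these values were 0.17 and -0.004. Gabpa had only 1 mPGC-1α value and an interval from -1.17 to 1.22, so no level can be compared. Yy1 differed by -0.14 (SE 0.21, from 4 arrays), which turned to 0.05 without PGC-1αf/f replicate 3. Myc, which binds E-boxes, and Ppargc1b, a relative of PGC-1α, both differed by 0.35 (SE 0.33 and 0.22), and each by 0.59 without PGC-1αf/f replicate 3. Of the 8 regulators listed, Ppargc1a had the highest difference, though Myc and Ppargc1b exceeded its 0.44 without PGC-1αf/f replicate 3, and Pprc1, another relative of PGC-1α, the lowest at -0.16, or -0.05 without that array, and 0 passed the adjusted threshold. Genes with a GABPA match in their window had a median difference of 0.23, and those with none 0.16. For NRF1 these medians were 0.17 and 0.22, for YY1 0.12 and 0.22, and for the 4 genes with an ERR match 0.17 against 0.22. For the 5 genes with an E-box match the median was 0.13, against 0.22. Of the 23 genes with a tested back-to-back neighbour, the median difference was 0.22, while that of the neighbours was 0.02, with 12 higher and 11 lower in mean. Mrps11 and Mrpl46 count here as each other's neighbour. Mrpl43 and Twnk differed by 0.04 and -0.50, and Mrpl47 and Ndufb5 by 0.17 and 0.26. Without PGC-1αf/f replicate 3, Mrpl43 was at -0.02 and Mrpl47 at 0.28, and without mPGC-1α replicate 3 they were at -0.01 and 0.10.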

How the data were processed

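Microglia isolated through P2RY12 were profiled by the authors on 1-colour Agilent mouse arrays (Cy5), 3 per group. The deposited scanner files give the intensity of each spot after background subtraction by Feature Extraction. The deposited table of all samples holds the same intensity values, not normalized between arrays (every spot within 0.6%). The study's methods name GeneSpring and no test for arrays. Control and outlier spots were left out here, log2 intensity was reduced by the 75th percentile of the array and spots of a probe were averaged. A probe was tested when all arrays of either group showed it well above background (25333 of 56605). Symbols came from RefSeq (GRCm38.p6) through transcript accessions, and 33767 probes had a single symbol. Tests used limma 3.58.1 (two-sided) in R 4.3.3 and were checked on simulated data. Promoters were scanned and figures drawn with pandas 2.3.3, numpy 2.4.6 and matplotlib 3.10.9 in Python 3.11.15. The number of arrays limits the precision.

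Genes, lists and tests were chosen with earlier results of these data known. Named genes were those past the threshold, the 8 highest and 6 lowest differences among genes with a value on every array, the 4 smallest p-values, the S18 paralogues, Mrpl12, Mrps12, Mrpl45, Mrpl58, untested genes, genes with probes of opposite sign, and the extremes of each list of serving genes. Subunit and origin were assigned from textbook knowledge. Alternatives were quantile, median-shift, normexp (offset 50, median spot signal) and cyclic loess scaling, the deposited table, other filters, gene means, a replicate block, the slide column as a random block, array weights, trended and robust variances, and leaving out each array. Cyclic loess was chosen after seeing the data. One leukocyte marker is not reported here by name.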

Additional observations from a re-analysis of the deposited data

How the results depend on the processing

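No mitoribosomal gene passed an adjusted p of 0.05 under any of 18 alternatives, the smallest limma value being 0.0659 with array weights. At an unadjusted p under 0.05, 9 genes were higher by default (11.7%, against 7.83% of all tested genes), 17 with trended and robust variances (22.1%, against 8.49%), 16 with array weights (20.8%, against 11.1%), 3 with no filter (3.85%, against 4.80%), and 0 with the median shift (against 5.21%) or the deposited table (against 5.48%). Leaving out each array in turn gave 3 to 14. The highest count, 14 (18.2%, against 12.4% of all tested genes), came without PGC-1αf/f replicate 1. The lowest, 3, came without PGC-1αf/f replicate 2 (3.9%, against 8.25%), PGC-1αf/f replicate 3 (3.9%, against 6.08%) and mPGC-1α replicate 1 (3.95%, against 4.90%). Ppargc1a differed by 0.44 to 1.14 when each array was left out and kept its direction throughout. The median difference moved to 0.063 with the median shift and lay between 0.14 and 0.23 under the remaining alternatives. The number of genes whose groups did not overlap was 30 by default, 18 with the median shift and 3 in the deposited table, which is not normalized between arrays. Those with all mPGC-1α arrays higher were 37.8% by default (12.4% of all tested genes) and 20.3% with the median shift (6.83%). In the deposited table they were 4.05% (9.20%). Those with all mPGC-1α arrays lower were 2.70% by default (10.7%), 4.05% with the median shift (17.8%) and 0% in the deposited table (0.692%).

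Of 23 named genes, 15 kept their direction under every alternative and 8 did not. Mrps18b was -0.081 with the median shift. Mrpl10 was 0.039 with normexp and 0.0084 with cyclic loess, Mrpl9 was 0.023 with normexp, and Mrpl39 was 0.014 with array weights. With the mean over a gene's probes, Mrps17 was 0.10, Mrpl9 0.14 and Mrps33 -0.056. Leaving out each array in turn, the difference ranged from -0.20 to 0.029 for Mrps18a, from -0.0024 to 0.13 for Mrps18b, from -0.10 to 0.063 for Mrpl10, from -0.17 to 0.060 for Mrpl9, from -0.14 to 0.0050 for Mrpl39 and from -0.069 to 0.038 for Mrpl44. The cause was not tested.

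Samples of the 2 groups share replicate numbers, but the deviations of same-numbered arrays correlated by 0.14, 0.13 and 0.02, so that the numbers were not taken to pair them. With the replicate number as a block (replicate block), the median difference was 0.21, 0 genes passed, 6 were higher at an unadjusted p under 0.05 (7.79%, against 10.2% of all tested genes), and Mrpl9 turned to 0.043. Over all probes, the calls went from 20 to 0 with the replicate block, to 138 when slide columns entered as a random block, and to 754 with array weights. The 95% interval of a gene's difference, with a median half-width of 0.34, was wider than the median difference.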
